A study of Mus musculus with 19 samples.

Results

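Slc43a3 and 9 genes of the brain endothelium (Cldn5, Flt1, Kdr, Pecam1, Cdh5, Slco1c1, Mfsd2a, Slc2a1 and Abcb1a) are described here, 10 of the 41388 Ensembl gene identifiers in the deposited count files. Slc43a3 was selected on its counts, which are higher in mice with a single functional copy of Wiz in both tissues examined, and the others were chosen because they mark endothelial cells or the blood-brain barrier. The genotype values of Slc43a3 are therefore a description without a test, whereas the other 9 genes were tested for genotype and all 10 for tissue. All 10 were matched by symbol and all passed the filter on low counts in every comparison.

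Wiz encodes a zinc finger protein of the G9a/GLP histone methyltransferase complex, and MommeD30 is a chemically induced allele of it on the FVB/NJ background of Line3, a strain in which every animal carries a multicopy GFP transgene driven by a human alpha-globin promoter. RNA-seq was done on whole brains of embryonic day 13.5 (E13.5) male embryos (3 Wiz +/+, called WT here, and 3 Wiz MommeD30/+, called Het), on whole brains of E13.5 female embryos (2 WT and 2 Het), and on cerebellums of 8-week-old, that is day 56, males (3 WT and 3 Het). Each library is bulk polyA RNA of a whole brain or cerebellum, in which vessels are a minor component, so fewer cells of a type and less RNA per cell cannot be told apart. The allele is present in all cells of the animal, and endothelial cells were not isolated.

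Endothelial cells line every vessel, and in the brain they form the blood-brain barrier: claudin-rich tight junctions close the space between the cells, transporters carry nutrients in and efflux pumps carry drugs out. Vessels sprout into the embryonic brain under vascular endothelial growth factor (VEGF), sensed through the receptors encoded by Kdr and Flt1, and Wnt ligands from neural cells, read through Fzd4 and beta-catenin, drive barrier formation. In the adult the endothelium is largely quiescent. Slc43a3 encodes a membrane carrier of purine nucleobases (ENBT1) of the same family as the amino acid transporters encoded by Slc43a1 and Slc43a2.

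The upstream sequences below are shown because the genes they belong to carry the results that follow: the VEGF receptor pair Kdr and Flt1, which moved in opposite directions between tissues, Cldn5, which had the smallest p between genotypes of the 9 genes tested, and Slco1c1, a barrier transporter that was higher in the adult. Each is the 250 bases before the RefSeq start (GRCm38.p6), read 5′ to 3′ on the gene's strand. RefSeq promoter entries were found for 7 of the 10 genes, and no entry was found for Slc43a3, Pecam1 or Cdh5. The entry of Abcb1a, not printed here, lies 92986 bases from the annotated start of that gene. Capitals mark AGGAAG or CCGGAA on either strand, hexamers that hold the GGAA core bound by ETS factors, the family best known in endothelial gene regulation.
Kdr, chr5:75978456-75978705, minus strand: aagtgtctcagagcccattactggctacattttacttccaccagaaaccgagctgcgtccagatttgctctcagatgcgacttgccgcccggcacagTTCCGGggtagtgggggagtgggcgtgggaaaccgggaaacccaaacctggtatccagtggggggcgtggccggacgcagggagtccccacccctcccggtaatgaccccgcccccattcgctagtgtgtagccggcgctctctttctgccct
Flt1, chr5:147726012-147726261, minus strand: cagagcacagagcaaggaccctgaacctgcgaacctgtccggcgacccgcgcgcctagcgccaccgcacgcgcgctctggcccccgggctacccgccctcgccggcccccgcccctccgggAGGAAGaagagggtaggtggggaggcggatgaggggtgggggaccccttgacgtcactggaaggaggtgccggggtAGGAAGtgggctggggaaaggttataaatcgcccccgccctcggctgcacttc
Cldn5, chr16:18776597-18776846, plus strand: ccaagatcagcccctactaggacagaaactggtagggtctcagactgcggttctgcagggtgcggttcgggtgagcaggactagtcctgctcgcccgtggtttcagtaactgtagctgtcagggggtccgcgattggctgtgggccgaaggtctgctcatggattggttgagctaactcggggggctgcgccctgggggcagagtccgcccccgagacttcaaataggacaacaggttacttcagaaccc
Slco1c1, chr6:141524104-141524353, plus strand: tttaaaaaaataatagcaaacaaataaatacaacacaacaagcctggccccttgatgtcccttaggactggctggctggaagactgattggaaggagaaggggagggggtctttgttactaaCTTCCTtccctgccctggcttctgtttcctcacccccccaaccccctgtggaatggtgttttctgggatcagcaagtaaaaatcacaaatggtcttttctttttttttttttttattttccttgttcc
The Kdr sequence holds 1 such match, Flt1 2, Slco1c1 1 and Cldn5 0. Of all 32851 promoter entries, 38.2% hold at least 1 in the same 250 bases, so a match is common. The GC content was 61.6% for Kdr, 70.4% for Flt1, 59.6% for Cldn5 and 42.8% for Slco1c1, against a median of 52.4% over all entries.

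The files held 16386029 to 50459755 counts on genes per library, with 28365687 to 30856484 in the cerebellums. Levels are given as CPM (read counts relative to library size) scaled by the trimmed mean of M-values (TMM), and differences as log2 fold changes with their standard error (SE). Wiz, the mutated gene, was lower in every Het library than in any WT library of its group, with log2 fold changes of -0.63 (SE 0.041) in males, -0.57 (SE 0.05) in females and -0.50 (SE 0.032) in cerebellum. The labelled tissues carried most of their markers: Pcp2, Calb1 and Gabra6 summed to 2090 to 2180 CPM in the cerebellums and to 13.7 to 23.8 CPM in the E13.5 brains. Dlx2, Eomes, Neurog2 and Mki67 summed to 51.8 to 70.1 CPM in the cerebellums and to 365 to 604 CPM in the E13.5 brains. Of these Eomes differed little, with a log2 fold change of -0.22 (SE 0.066) in WT cerebellum against WT male brain. Every one of the 10 genes was counted in every library, the lowest count being 15 for Slc43a3.

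Slc43a3 (ENSMUSG00000027074) lies on chr2:84936579-84958509, plus strand, in GRCm38 and shares no base with another annotated gene. In male E13.5 brain it stood at 9.26, 11.1 and 9.86 CPM in the 3 WT brains and at 13.8, 14.7 and 13.9 CPM in the 3 Het brains, a fitted fold of 1.43 (log2 fold change 0.51, SE 0.075). In female brain it stood at 12.2 and 8.83 CPM in WT and at 15.5 and 14.0 CPM in Het, a fold of 1.40 (0.49, SE 0.15). The female value rests on the WT pair: it was 0.27 without the second WT female and 0.74 without the first. Each of the 5 Het brains was above each of the 5 WT brains, a separation that 0.704% of the 17620 genes tested over both sexes had in that direction. Over both sexes together the log2 fold change was 0.50 (SE 0.081).

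In the adult cerebellum the gene was close to the limit of detection. The 3 WT cerebellums held 22, 15 and 25 reads, or 0.794, 0.556 and 0.893 CPM, and the 3 Het cerebellums 47, 28 and 44 reads, or 1.81, 1.04 and 1.57 CPM. The groups did not overlap, as for 11.6% of genes in that direction, and the fold was 1.96 (log2 fold change 0.97, SE 0.25). The absolute differences were small beside those in the embryo: 0.748 ± 0.173 CPM (SD, n = 3) against 1.48 ± 0.392 (SD, n = 3) in cerebellum, and 10.1 ± 0.917 (SD, n = 3) against 14.1 ± 0.471 (SD, n = 3) in male brain. The log2 difference between cerebellum and male brain in the genotype change was 0.46 (SE 0.25), and that between female and male brain was -0.02 (SE 0.17).

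**Figure D1:**
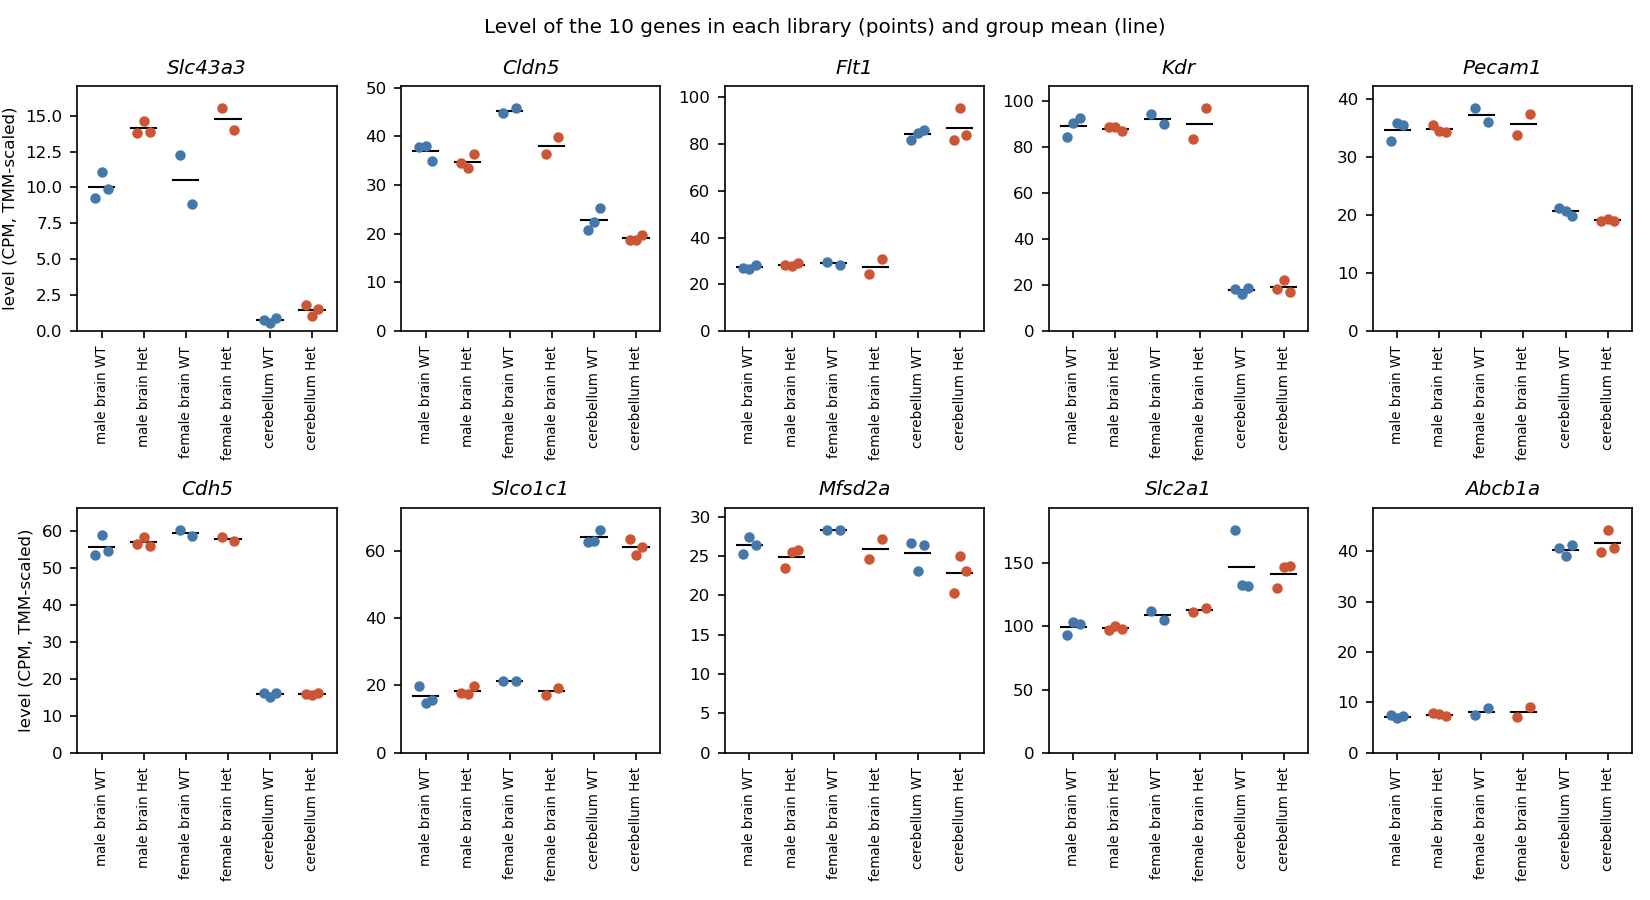
Level in CPM (vertical axes, linear and starting at 0) of each of the 10 genes in the 16 libraries, in 6 groups along the horizontal axis (blue WT, red Het, line the group mean). For Slc43a3 the Het points lie above the WT points in each tissue and sex. For every gene except Mfsd2a, Slc43a3 included, the step between E13.5 brain and cerebellum is larger than that between genotypes.

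None of the other 9 genes passed the test in either direction between genotypes. In male brain 0 of 9 were called (adjusted p of at most 0.05 by edgeR's quasi-likelihood test with Benjamini-Hochberg adjustment, and a fold under 0.7 or over 1.3), where 0.184% of the 16848 genes tested were called. Their folds ran from 0.944 to 1.07, and no p was under 0.05. In female brain 0 of 9 were called, beside 0.111% of all genes, with folds of 0.843 to 1.04 and 2 genes with an unadjusted p under 0.05. Over both sexes 0 of 9 were called, beside 0.346% of all genes, with folds of 0.899 to 1.02 and 2 genes with an unadjusted p under 0.05. In cerebellum 0 of 9 were called, beside 0.832% of all genes, with folds of 0.836 to 1.09, and again 2 with an unadjusted p under 0.05. DESeq2 also called 0 of the 9 in each of these comparisons. The upper ends of the 95% intervals of the 9 genes reached 0.31 in males, 0.34 in females and 0.31 in cerebellum on the log2 scale. Whether their changes differed from that of Slc43a3 was not tested.

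Cldn5, the claudin of the brain endothelial tight junction (chr16:18776847-18778262), was the gene nearest to a call, and in the opposite direction. In cerebellum it stood at 20.8, 22.4 and 25.2 CPM in WT and at 18.8, 18.6 and 19.7 CPM in Het. All Het cerebellums were below all WT cerebellums, as for 12.4% of genes, and the log2 fold change was -0.26 (SE 0.068) with an adjusted p of 0.0356 by edgeR's quasi-likelihood test. By adjusted p alone 2.57% of genes were lower. The fold of 0.836 lay inside the limits, so the gene was not called. Its adjusted p was between 0.00327 and 0.0765 under other settings, and between 0.0144 and 0.204 when single cerebellums were left out. In female brain Cldn5 stood at 44.7 and 45.7 CPM in WT and at 36.4 and 39.8 CPM in Het (-0.25, SE 0.068, edgeR adjusted p 0.773), and in male brain at 37.8, 37.9 and 34.9 CPM against 34.5, 33.4 and 36.4 CPM (-0.08, SE 0.051, adjusted p 0.699). The female groups did not overlap, and the male groups did. Over both sexes the log2 fold change was -0.15 (SE 0.045) with an edgeR adjusted p of 0.198.

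The adhesion genes Pecam1 and Cdh5 were not called. Cdh5, which encodes VE-cadherin, stood at 15.1 to 16.2 CPM in WT cerebellum and 15.6 to 16.1 CPM in Het cerebellum, and its log2 fold changes were 0.04 (SE 0.044) in males, -0.04 (SE 0.054) in females and 0.01 (SE 0.061) in cerebellum. Pecam1, the CD31 adhesion molecule, stood at 21.2, 20.8 and 19.9 CPM in WT and at 18.9, 19.3 and 19.1 CPM in Het cerebellum (-0.11, SE 0.054, edgeR adjusted p 0.272), so these groups did not overlap, while in male brain its change was 0.01 (SE 0.048). In cerebellum 2 of the 9 genes, Cldn5 and Pecam1, had Het below WT without overlap, beside 12.4% of all genes, and in female brain 4 had (Cldn5, Cdh5, Slco1c1 and Mfsd2a), beside 18.0% of all genes. No gene of the 9 was separated in the upward direction in either.

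Neither VEGF receptor was called between genotypes. Kdr (VEGFR2, the main signalling receptor) had log2 fold changes of -0.01 (SE 0.04) in males, -0.03 (SE 0.074) in females and 0.13 (SE 0.084) in cerebellum, and Flt1 (VEGFR1, which binds VEGF with little signalling) had 0.06 (SE 0.048), -0.07 (SE 0.11) and 0.05 (SE 0.047). The transporters were likewise not called. Slc2a1 (GLUT1, the barrier glucose carrier) had changes of -0.01 (SE 0.043), 0.05 (SE 0.052) and -0.05 (SE 0.077), and Abcb1a (P-glycoprotein, an efflux pump) had 0.07 (SE 0.079), -0.02 (SE 0.15) and 0.05 (SE 0.046). Mfsd2a, the carrier of docosahexaenoic acid that also restrains transcytosis, was lower in each comparison without passing the test, at -0.07 (SE 0.056), -0.13 (SE 0.076) and -0.15 (SE 0.07, edgeR adjusted p 0.251). Slco1c1, a thyroid hormone transporter, had changes of 0.10 (SE 0.097) in male and -0.22 (SE 0.087) in female brain. The genotype by sex term of Slco1c1 was -0.33 (SE 0.15, unadjusted p 0.0488, edgeR adjusted p 0.985), the only one of the 9 under 0.05, and that term called 0 of the 17620 genes, beside 701 with an unadjusted p under 0.05. The genotype by tissue term called 0 of the 9, beside 0.173% of all genes, and none had an unadjusted p under 0.05.

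**Figure D2:**
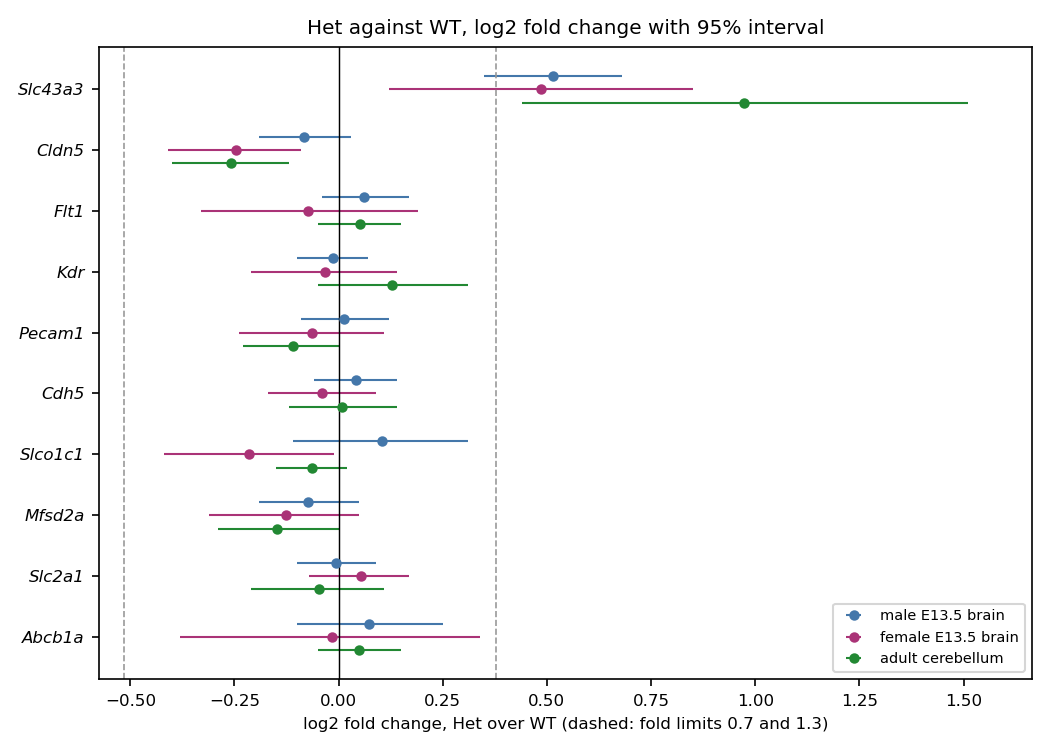
Log2 fold change of Het over WT (horizontal axis) for each gene, with its 95% interval, in male E13.5 brain (3 against 3), female E13.5 brain (2 against 2) and adult cerebellum (3 against 3). Slc43a3, whose values chose it and are shown as a description, lies farthest to the right, at 0.51, 0.49 and 0.97. Of the 9 tested genes Cldn5 in female brain (-0.25) and cerebellum (-0.26) and Slco1c1 in female brain (-0.22) lie farthest to the left.

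Relative to the mean of the other 9 genes Slc43a3 was nearer in Het than in WT. These differences hold the genotype change by which Slc43a3 was chosen, so they are a description and not a separate result. On the log2 CPM scale Slc43a3 lay below the mean of the other 9 genes by 1.74 ± 0.12 (SD, n = 3) in WT male brain, a difference of -1.74, against -1.26 ± 0.05 (SD, n = 3) in Het male brain. In female brain the differences were -1.84 ± 0.32 (SD, n = 2) and -1.25 ± 0.23 (SD, n = 2), and in cerebellum -5.52 ± 0.28 (SD, n = 3) and -4.55 ± 0.45 (SD, n = 3). The mean of the other 9 genes itself stood at 5.07 and 5.08 in male brain, 5.23 and 5.14 in female brain and 5.18 and 5.13 in cerebellum, WT and Het in turn.

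Further vascular genes were not called either. Of 28 other endothelial genes tested (receptors, adhesion molecules and transcription factors such as Tek, Tie1 and Sox7), 24 other barrier genes, 21 genes of angiogenic signalling (20 in cerebellum) and 14 of Wnt signalling at the barrier, 0 were called between genotypes in any of the 4 comparisons by edgeR's quasi-likelihood test. An unadjusted p under 0.05 was seen for 9.2% of these 87 genes in male brain, 6.9% in female brain and 8.0% over both sexes, against 8.4%, 6.4% and 11.8% of all genes. In cerebellum it was seen for 26.7% of 86 genes against 19.9% of all genes. There 3 of 28 endothelial, 4 of 24 barrier, 3 of 20 angiogenic and 1 of 14 Wnt genes passed the adjusted p limit alone. All of them lay inside the fold limits, and 5.26% of all genes passed the adjusted p limit. Among genes with an unadjusted p under 0.05 in cerebellum the direction was mixed. Higher in Het were 1 of 6 endothelial, 3 of 7 barrier, 3 of 8 angiogenic and 2 of 2 Wnt genes. The median log2 fold changes of the endothelial list were 0.01 in males, -0.08 in females and -0.03 in cerebellum, beside a median of all genes within 0.01 of 0 in each.

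Markers of other cell types were not called between genotypes, except those of red blood cells. Summed over 17 mural (pericyte and smooth muscle) genes, the cerebellums held 275 to 283 CPM in WT and 265 to 277 CPM in Het, and over 9 microglial genes 78.8 to 84.4 and 79.6 to 84.3 CPM. Of the red blood cell genes, 4 of the 6 tested were called higher in Het cerebellum, beside 0.532% of all genes. They were Hba-a1 (0.78, SE 0.17), Hba-a2 (0.87, SE 0.23), Hbb-bs (0.86, SE 0.17) and Alas2 (1.08, SE 0.18), with the caveat that near-identical globin copies can share reads. The summed level of the 10 red cell genes was 161 to 250 CPM in WT and 291 to 530 CPM in Het cerebellum, with the embryonic globins Hbb-bh1, Hbb-y and Hba-x at 0 reads throughout. Slc43a3 and the red cell genes were thus both higher in the same 3 cerebellums, and the part of blood in the Slc43a3 result was not tested there. In the brains the red cell sum was 688 to 978 CPM in WT and 835 to 1100 CPM in Het males. In females it was 1290 to 1330 CPM in WT and 1200 to 1220 CPM in Het, and the part of blood was not tested in the brains either. Choroid plexus genes summed to 1940 to 2190 CPM in WT and to 1070 to 2270 CPM in Het cerebellum.

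Genes near Slc43a3 were compared in the same way. Within 100 kb lie 8 annotated genes, and none of those tested was called between genotypes. The paralogue Slc43a1, whose end is 73.0 kb away, had a log2 fold change of 0.09 (SE 0.098) in male and 0.31 (SE 0.16, edgeR adjusted p 0.803) in female brain and was too low to test in cerebellum, at 4 to 14 reads. Rtn4rl2, 49.9 kb away, had -0.37 (SE 0.15, edgeR adjusted p 0.558) in male brain and -0.14 (SE 0.24) in female brain. Ssrp1 and Tnks1bp1, both well expressed, had 0.02 (SE 0.037) and 0.06 (SE 0.037) in male brain and 0.02 (SE 0.031) and -0.01 (SE 0.041) in cerebellum. P2rx3 varied widely between brains of one genotype (7.82 to 17.5 CPM in WT males), and Prg2, Prg3 and Gm24332 had at most 3 reads in any library.

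Variation between libraries of the same group offers a view of Slc43a3 that does not use the genotype difference. After the mean of each of the 6 groups had been subtracted from log2 CPM, Pearson's r with Slc43a3 over the 16 libraries was highest for Cdh5 among the 9 genes, at 0.69, which 1.4% of the 17956 genes exceeded. It was 0.13 for Cldn5, 0.08 for Slc2a1, 0.01 for Pecam1, -0.02 for Slco1c1, -0.12 for Mfsd2a, -0.14 for Kdr, -0.43 for Flt1 and -0.45 for Abcb1a. The median over the 9 was -0.02, against -0.01 over all genes, and 4 of the 9 were above 0, against 48.9% of all genes. Among themselves the other 9 genes had a median r of 0.22 over 36 pairs, from -0.55 to 0.71, the highest being that of Flt1 with Kdr. These values are descriptions. They share library depth and composition, and the low cerebellum counts give Slc43a3 a spread (SD of the centred log2 CPM) of 0.37 there against 0.16 in the brains.

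**Figure D3:**
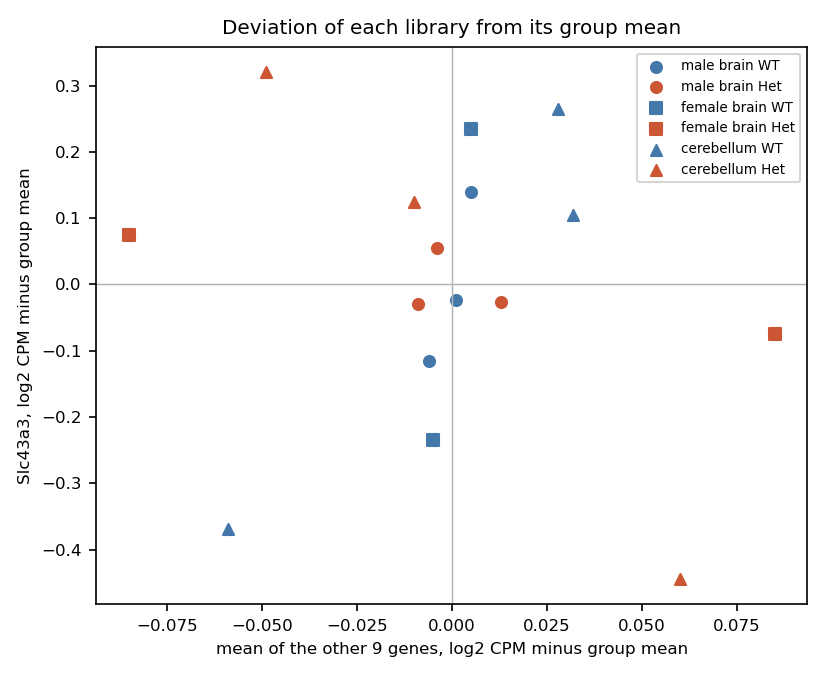
Deviation of each of the 16 libraries from its own group mean, in log2 CPM, for the mean of the other 9 genes (horizontal axis) and for Slc43a3 (vertical axis), with circles for male brain, squares for female brain, triangles for cerebellum, blue WT and red Het. The cerebellum points spread from -0.44 to 0.32 along the vertical axis while the mean of the other genes stays within 0.09 of 0, and no common line joins the groups.

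The r of Cdh5 was 0.71 over the 10 brains alone and 0.80 over the 6 cerebellums alone, and stayed between 0.56 and 0.77 when single libraries were left out. The sign differed between tissues for others: Slco1c1 had -0.48 in brain and 0.84 in cerebellum, and Pecam1 0.38 and -0.46. Slc2a1 had 0.68 in brain and -0.05 in cerebellum. The median over the 9 genes was 0.11 in brain, against 0.00 over all genes, and -0.19 in cerebellum, against -0.02. With single libraries left out the r of Kdr ran from -0.50 to 0.60 and that of Mfsd2a from -0.54 to 0.36, and the signs of Cldn5, Slc2a1, Pecam1 and Slco1c1 also changed, so these values rest on single libraries. The genes most like Slc43a3 on this measure were Ccdc87 (0.94), Ankrd49 (0.92), Cfap61 (0.91), Gm12504 (0.89) and Foxj1 (0.89). None of these is an endothelial marker, and Foxj1 is known as the regulator of motile cilia. In which cells Slc43a3 was transcribed cannot be read from bulk libraries.

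Between tissues the 10 genes divided into 3 sets. Adult WT cerebellum was compared with WT male E13.5 brain, so that age, brain region and any batch difference cannot be told apart, and the same comparison was made in the Het libraries, which are separate animals. In WT, 4 of the 10 genes were called higher in cerebellum (Flt1, Slco1c1, Slc2a1 and Abcb1a) and 5 lower (Slc43a3, Cldn5, Kdr, Pecam1 and Cdh5), beside 36.4% and 32.9% of the 16840 genes tested, and 69.3% in either direction. In Het the same 4 were called higher and the same 5 lower, beside 35.8% and 33.0% of genes and 68.8% in either direction. Mfsd2a was called in neither. For each of the called genes the groups did not overlap, as for 43.2% (higher) and 44.1% (lower) of genes in WT and 43.1% and 44.8% in Het.

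The steepest fall was that of Slc43a3, whose level in WT cerebellum was 0.076 of that in WT male brain (log2 fold change -3.72, SE 0.15, edgeR adjusted p 2.78e-12), and 0.105 of it in Het (-3.25, SE 0.13, adjusted p 8.9e-12). The brains held 191 to 634 reads of it per male library, against 15 to 47 in the cerebellums.

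The VEGF receptors went opposite ways. Kdr (chr5:75932827-75978458) fell from 84.4, 90.5 and 92.8 CPM in WT male brain to 18.3, 16.1 and 18.7 CPM in WT cerebellum, a fold of 0.199 (log2 fold change -2.33, SE 0.058). Flt1 (chr5:147561604-147726011) rose from 27.0, 26.4 and 28.4 CPM to 81.6, 84.6 and 86.3 CPM, a fold of 3.07 (1.62, SE 0.047). No cerebellum overlapped any brain for either receptor. The Het libraries gave -2.18 (SE 0.064) for Kdr and 1.62 (SE 0.053) for Flt1.

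The junction and adhesion genes were all lower in the adult. Cdh5 (chr8:104101625-104144511) fell from 53.4, 58.9 and 54.5 CPM to 16.2, 15.1 and 16.2 CPM (log2 fold change -1.80, SE 0.054, edgeR adjusted p 7.05e-14), Pecam1 (chr11:106654217-106750628) from 32.7, 35.8 and 35.5 CPM to 21.2, 20.8 and 19.9 CPM (-0.74, SE 0.056, adjusted p 5.61e-09), and Cldn5 from 37.8, 37.9 and 34.9 CPM to 20.8, 22.4 and 25.2 CPM (-0.69, SE 0.068, adjusted p 1.41e-07). In Het the values were -1.83 (SE 0.044), -0.86 (SE 0.045) and -0.86 (SE 0.05). The 3 falls differed in size, in WT by more than their 95% intervals for Cdh5 against the others: Cdh5 was left at 0.287 of its embryonic level, Pecam1 at 0.598 and Cldn5 at 0.619.

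The barrier transporters among the genes described here were higher in the adult, except Mfsd2a, which was not called. Abcb1a (chr5:8660077-8748575) rose from 7.45, 6.83 and 7.19 CPM in WT male brain to 40.7, 39.2 and 41.2 CPM in WT cerebellum, a fold of 5.57 (log2 fold change 2.48, SE 0.062, edgeR adjusted p 8.45e-15). Of the 5404 distinct 100-base windows of its transcripts 499 (9.23%) also occur in Abcb1b or Abcb4, so part of its count is uncertain, whereas the other 9 genes share none with another gene. Slco1c1 (chr6:141524368-141570177) rose from 19.7, 14.9 and 15.7 CPM to 62.6, 63.0 and 66.2 CPM (1.89, SE 0.08, adjusted p 4.94e-12). Slc2a1 (chr4:119108711-119137983) rose from 93.0, 103.5 and 102.0 CPM to 176.5, 132.7 and 131.6 CPM (0.57, SE 0.086, adjusted p 1.7e-05), the first WT cerebellum standing above the rest. Slc2a1 shares 105 exon bases (2.99%) with the antisense gene Gm12868 and Abcb1a 553 (10.09%) with Gm42686 on the opposite strand, whose reads cannot be told apart from theirs where counting ignored strand. Scaled by total counts alone, which moves the median of all genes to -0.23, the Slc2a1 change was 0.36 in WT and 0.31 in Het and was not called. Mfsd2a (chr4:122946850-122961188) stood at 25.2, 27.5 and 26.4 CPM in WT male brain and at 26.6, 23.1 and 26.4 CPM in WT cerebellum, with overlapping groups and a change of -0.05 (SE 0.062, 95% interval -0.18 to 0.09, edgeR adjusted p 0.488). In Het its change was -0.12 (SE 0.068). Choroid plexus genes summed to 1940 to 2190 CPM in WT cerebellum against 321 to 395 CPM in WT male brain. Astrocyte genes summed to 3440 to 3520 CPM against 522 to 543 CPM. The part of these cell types in the transporter levels was not tested.

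**Figure D4:**
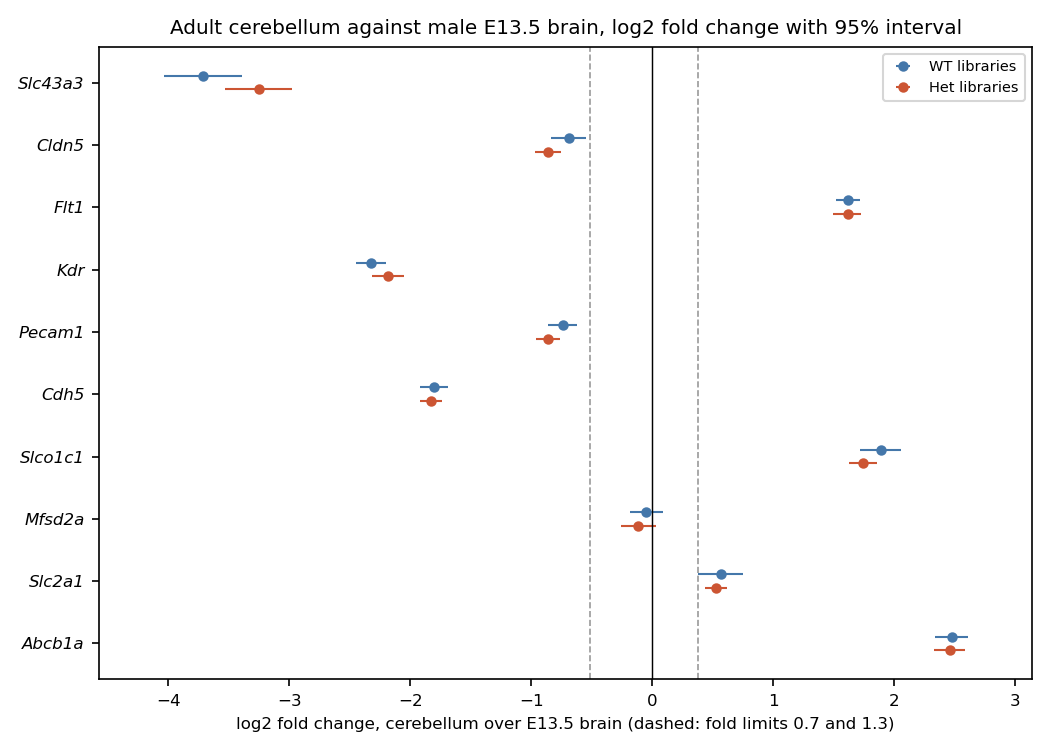
Log2 fold change of adult cerebellum over male E13.5 brain (horizontal axis) for each gene, with its 95% interval, in the WT libraries (blue, 3 against 3) and the Het libraries (red, 3 against 3). Slc43a3, Kdr and Cdh5 lie farthest to the left, at -3.72, -2.33 and -1.80 in WT, and Abcb1a, Slco1c1 and Flt1 farthest to the right, at 2.48, 1.89 and 1.62.

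Per kilobase of exon, which allows levels of different genes to be set side by side, the order of the 10 genes was rearranged between tissues. In WT male brain it ran from Slc2a1 (28.4 CPM per kb) and Cldn5 (26.0) through Cdh5 (13.2), Mfsd2a (11.7), Kdr (9.88), Pecam1 (5.57) and Slco1c1 (3.23) to Slc43a3 (2.25), Flt1 (2.02) and Abcb1a (1.31). The libraries of the neighbours Slc2a1 and Cldn5 overlapped in range, as did those of Slc43a3 and Flt1, and no others. In WT cerebellum the order was Slc2a1 (41.9), Cldn5 (16.1), Slco1c1 (12.3), Mfsd2a (11.3), Abcb1a (7.36), Flt1 (6.23), Cdh5 (3.77), Pecam1 (3.31), Kdr (1.96) and Slc43a3 (0.167), with no overlap between neighbours. Slco1c1, Abcb1a and Flt1 thus passed Cdh5, Pecam1 and Kdr, and Slc43a3 went from a level like that of Flt1 to the last place. In Het male brain Slc43a3 stood at 3.16 CPM per kb, clear of Flt1 at 2.11 and still below Slco1c1 at 3.55.

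The longer vascular lists held genes called in both directions, and their counts are to be read beside the 36.4% of all genes called higher and 32.9% called lower. Of the 28 other endothelial genes 6 were called higher and 12 lower in WT cerebellum, a total near the 69.3% of all genes called, with a median log2 fold change of -0.47, against -0.02 over all genes. Ptprb, the phosphatase that opposes Tie2 (1.31, SE 0.063), and Plvap, the fenestral diaphragm protein (1.58, SE 0.1), were higher, and the surface receptor gene Cd93 (-2.62, SE 0.071), the transcription factor gene Sox7 (-2.39, SE 0.12) and the receptor gene Tie1 (-1.37, SE 0.061) were lower. Of the 24 other barrier genes 13 were higher and 6 lower, with a median of 0.47. The organic anion carrier gene Slco1a4 (4.58, SE 0.077) and the tight junction genes Marveld2 (2.68, SE 0.088) and Ocln (2.36, SE 0.076) were higher. The tight junction gene Tjp1 (-0.56, SE 0.044), the glutamine carrier gene Slc38a5 (-2.14, SE 0.1) and the pericyte transcription factor gene Foxf2 (-1.39, SE 0.11) were lower. The part of choroid plexus and astrocytes, whose summed markers were also higher in cerebellum, was not tested. In Het the counts were 5 higher and 12 lower for the endothelial list and 12 and 6 for the barrier list.

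Of 21 angiogenic genes 3 were called higher and 11 lower (median -0.85), beside 36.4% and 32.9% of all genes. The ligand genes Vegfa (0.65, SE 0.037) and Vegfb (1.29, SE 0.06) and the netrin receptor gene Unc5b (2.03, SE 0.047) were higher, and the apelin receptor gene Aplnr (-3.99, SE 0.09), the co-receptor gene Nrp2 (-3.25, SE 0.06), Efnb2 (-2.36, SE 0.05) and Notch1 (-2.34, SE 0.049) were lower. Of 14 Wnt genes 3 were higher and 9 lower (median -0.68). The ligand genes diverged, Wnt7b at -3.28 (SE 0.068) against Wnt7a at 1.12 (SE 0.062) and Ndp at 1.98 (SE 0.097), the receptor gene Fzd4 was higher (1.35, SE 0.093), and Lef1 (-2.62, SE 0.086) and Apcdd1 (-2.24, SE 0.053), both known targets of the pathway, were lower. Neural cells also express most of the signalling genes, so these levels are not those of the vessels alone.

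Of 17 mural genes 6 were higher and 5 lower, shares near the 36.4% and 32.9% of all genes. Myh11 (3.34, SE 0.13), Des (2.65, SE 0.16), Acta2 (1.28, SE 0.092) and Vtn (0.68, SE 0.054) were among those higher. Notch3 (-1.59, SE 0.053), Foxc1 (-1.18, SE 0.098), Pdgfrb (-0.86, SE 0.048) and Abcc9 (-0.825, SE 0.057) were among those lower. Fibroblast genes were lower in 5 of 6, Col3a1 the most (-4.37, SE 0.092), and their summed level was 121 to 136 CPM in WT cerebellum against 577 to 652 CPM in WT male brain. Red cell genes summed to 161 to 250 CPM against 688 to 978 CPM. The red cell genes did not move as one. In WT 8 of 10 were called lower, the embryonic globins Hbb-y (-17.0, SE 0.42), Hba-x (-13.4, SE 0.6) and Hbb-bh1 (-10.2, SE 0.87) the most. Hbb-bs (0.32, SE 0.11) and Alas2 (-0.003, SE 0.1) were not called. In Het 5 of the 9 tested were called lower and 2 higher. The summed fibroblast and red cell levels moved in the same direction as Slc43a3, Kdr and Cdh5, and the part of these cells in those falls was not tested.

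**Figure D5:**
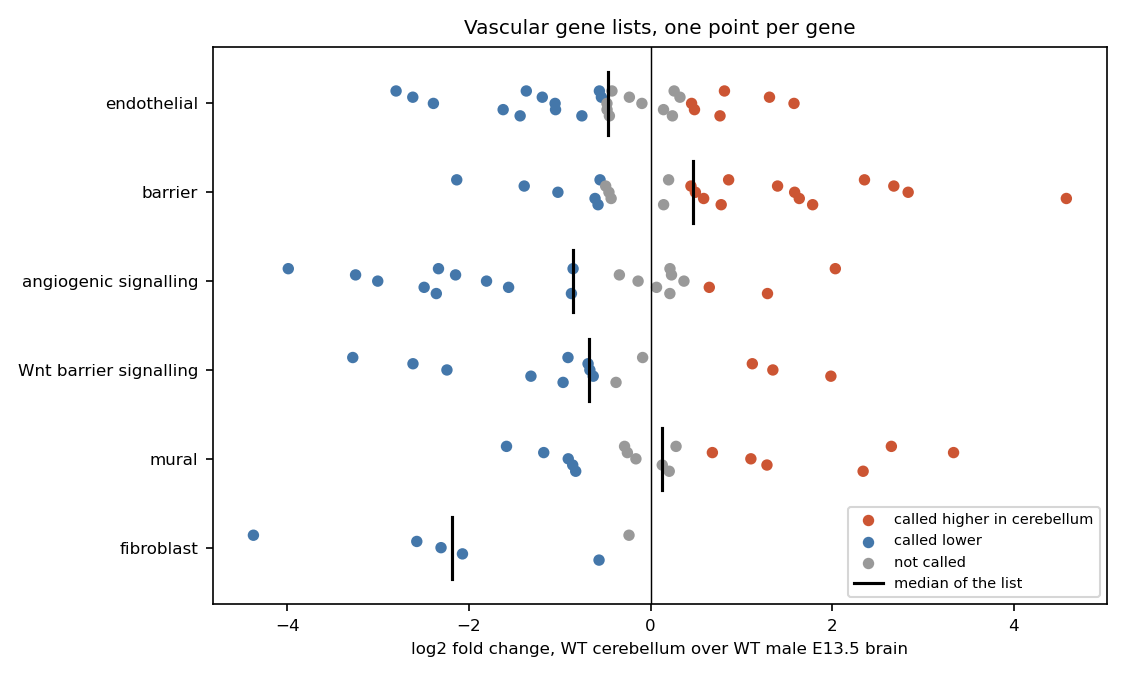
Log2 fold change of WT cerebellum over WT male E13.5 brain (horizontal axis), 1 point per gene, for 6 lists that exclude the 10 genes above, red for called higher, blue for called lower, grey for not called, and a black line at the list median. The barrier list has its median at 0.47, the endothelial, angiogenic and Wnt lists at -0.47, -0.85 and -0.68, and each of these 4 lists has genes called in both directions.

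The sisters of Slc43a3 in the SLC43 family did not share a direction between tissues. Slc43a1 fell to 0.0558 of its embryonic level (log2 fold change -4.16, SE 0.24), from 4.99 to 6.20 CPM in WT male brain to 0.148 to 0.505 CPM in WT cerebellum, whereas Slc43a2 rose (1.58, SE 0.042). In Het the values were -4.46 and 1.72, beside -3.25 for Slc43a3. Between genotypes neither sister was called in any comparison, and only Slc43a2 was tested in cerebellum (0.14, SE 0.032, edgeR adjusted p 0.0141, a fold of 1.11 inside the limits).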

How the data were processed

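PolyA RNA of 16 samples was sequenced as single-end reads, aligned to mm10 with TopHat 2.0.11 and counted with htseq-count 0.6.1. What the authors deposited for each sample is a list of Ensembl genes with their raw counts, not normalized. The counting mode, and with it the handling of strand and of shared reads, is not given in the sources used here. The 3 samples of a Wiz ChIP-seq experiment were not analysed here.

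Symbols, exon lengths and positions came from GENCODE M21 (GRCm38), in which 40340 of the 41388 identifiers were found. Each comparison was fitted on its own libraries with edgeR 4.0.16 in R 4.3.3: TMM scaling, filterByExpr with a minimum count of 10, the quasi-likelihood test and Benjamini-Hochberg adjustment over all genes tested. Genes were called below 0.7-fold or above 1.3-fold with adjusted p no higher than 0.05, after the methods of the study. CPM values were scaled by TMM over the 16 libraries, and log2 CPM used a prior count of 2. Intervals are 95%. The genotype fits of male brain, female brain and cerebellum and the WT tissue fit were tested on simulated counts with known changes. The fit over both sexes, the Het tissue fit and the genotype by tissue and genotype by sex terms were not. DESeq2 1.42.0, other scalings and filters, single libraries left out and the replicate number as a block were alternatives. Libraries of a group differed by more than sampling noise (chi-square per degree of freedom 2.11 to 11.21). The genes and lists were chosen with earlier results of these data known. Genes outside the 10 were named by rule: those called between genotypes, up to 4 of each list and direction with the smallest p between tissues, the 5 most like Slc43a3, and its neighbours within 100 kb.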

Additional observations from a re-analysis of the deposited data

How the results depend on the processing

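The counts of called genes among the 9 (genotype) or 10 (tissue) were the same under every scaling, filter, tool, shared fit and left-out library tried, with these exceptions. By adjusted p alone, without fold limits, 1 of the 9 was called lower in Het cerebellum (Cldn5, -0.26). Scaled by total counts alone, 3 genes and not 4 were called higher in cerebellum than in E13.5 brain in both WT and Het, Slc2a1 falling inside the fold limits. Numbers in the labels did not pair the samples (r of same-numbered libraries -0.161 to 0.009), and with the replicate number as a block 0 of 9 were called between genotypes and 4 higher and 5 lower between tissues. The genotype by sex difference of Slc43a3, -0.02 with all libraries, changed sign without single libraries, ranging from -0.24 (without the second WT female) to 0.24 (without the first WT female). Leaving out a library left 1 sample in a female group, which was then assumed to vary like the others. Depth limits Slc43a3 in cerebellum, where its change was 0.81 to 1.17 with single libraries left out, and its change in female brain was 0.27 to 0.74.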

Other observations

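Other cell types differed between the tissues as follows, by edgeR's quasi-likelihood test in WT cerebellum against WT male E13.5 brain, where 36.4% of all genes were called higher and 32.9% lower. All 7 astrocyte genes were called higher, among them Aqp4, the water channel of the endfeet that cover brain vessels (log2 fold change 7.06, SE 0.085), and Slc1a3 (3.33, SE 0.045). Of 9 microglial genes 4 were higher, such as Tmem119 (1.39, SE 0.11), and 2 lower, Fcrls (-2.07, SE 0.16) and Aif1 (-0.76, SE 0.2), together near the 69.3% of all genes called. Of 7 choroid plexus genes 5 were higher, Kl the most (5.53, SE 0.088), and Otx2 was lower (-1.41, SE 0.064).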
